A study of Mus musculus with 7 samples.

Results

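Crypt stem cell genes are the 10 transcripts Lgr5, Olfm4, Ascl2, Smoc2, Axin2, Rgmb, Slc12a2, Cdca7, Sox9 and Ephb2, taken by gene name from a table of 22987 mouse genes, in which all 10 were found. RNA came from duodenal scrapings of C57BL/6 mice aged 6 weeks: 4 libraries were from mice with the Nlrc4-T337S genotype and 3 from wild-type mice. Nlrc4-T337S is an amino acid substitution in Nlrc4, a protein that assembles inflammasomes in gut epithelium and myeloid cells; its zygosity and how the allele was made are not stated in the labels. The comparison asks how the tissue's transcripts differed between these genotypes. Values are RPKM, reads per kilobase of gene scaled to mapped reads, as the authors deposited them. Whether every library is a separate mouse is not stated, so p-values measure the spread between libraries, which may be technical.

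The lining of the small intestine is renewed from stem cells at the base of the crypts, which lie between Paneth cells. Wnt ligands from Paneth cells and from fibroblasts around the crypt, amplified by R-spondins that bind Lgr receptors, keep these cells dividing. Notch signals keep them from becoming secretory cells, and BMP signals, strongest toward the villus, oppose the Wnt-driven division. Lgr5 and Ascl2 mark the stem cells most narrowly, while Sox9, Ephb2, Slc12a2, Axin2 and Cdca7 reach further up the crypt into dividing progenitors, and Sox9 is also made by Paneth cells. The tissue is called epithelium in the labels, and 10 general epithelial transcripts, among them Epcam and Cdx2, summed to 4934 to 6835 RPKM in Nlrc4-T337S and 6071 to 6543 RPKM in wild type. Lgr5 and Ascl2, the narrowest stem cell markers, were detected in every library but at low levels.

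All 10 transcripts had a lower mean in Nlrc4-T337S than in wild type. The Nlrc4-T337S mean was 24.6% of the wild-type mean for Ascl2, 26.5% for Lgr5, 30.8% for Olfm4 and 31.8% for Smoc2. It was 35.3% for Slc12a2, 45.1% for Cdca7, 49.7% for Sox9, 54.3% for Ephb2, 56.8% for Axin2 and 78.3% for Rgmb. Over the 10987 tested genes the median of the same quantity was 89.5%. Cdca7 was the 1 of 6 tested members that passed the test. In tissue RNA, fewer stem cells and less RNA per stem cell cannot be told apart. Paneth and smooth muscle markers also had lower sums in Nlrc4-T337S, at 11.1% to 51.7% and 12.5% to 33.6% of the wild-type mean. What part the make-up of the scrapings played was not tested.

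The test was limma on log2(RPKM + 0.5) over the 10987 genes with a mean of at least 0.5 RPKM, with Benjamini-Hochberg adjustment and a threshold of 0.05. Olfm4, Smoc2, Axin2, Rgmb, Slc12a2 and Cdca7 reached that mean, and each averaged at least 0.652 RPKM in Nlrc4-T337S, so none entered through wild type alone. Lgr5, Ascl2, Sox9 and Ephb2 averaged less and were fitted only without the filter. Of the 6 tested members, 1 was called lower and 0 higher, where 0.592% of tested genes were called lower and 0.3% higher. The median log2 difference of the 6 was -1.10, against -0.15 over all tested genes. An unadjusted p under 0.05 with a lower level was found for 5 of the 6, as it was for 20.4% of tested genes. Every Nlrc4-T337S library lay below every wild-type library for 4 of the 6 and above for 0, as it did for 17.3% (below) and 1.97% (above) of tested genes. The same held for 8 of all 10 members, as it did for 14.9% of the 20996 genes with any value above 0.

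**Figure D1:**
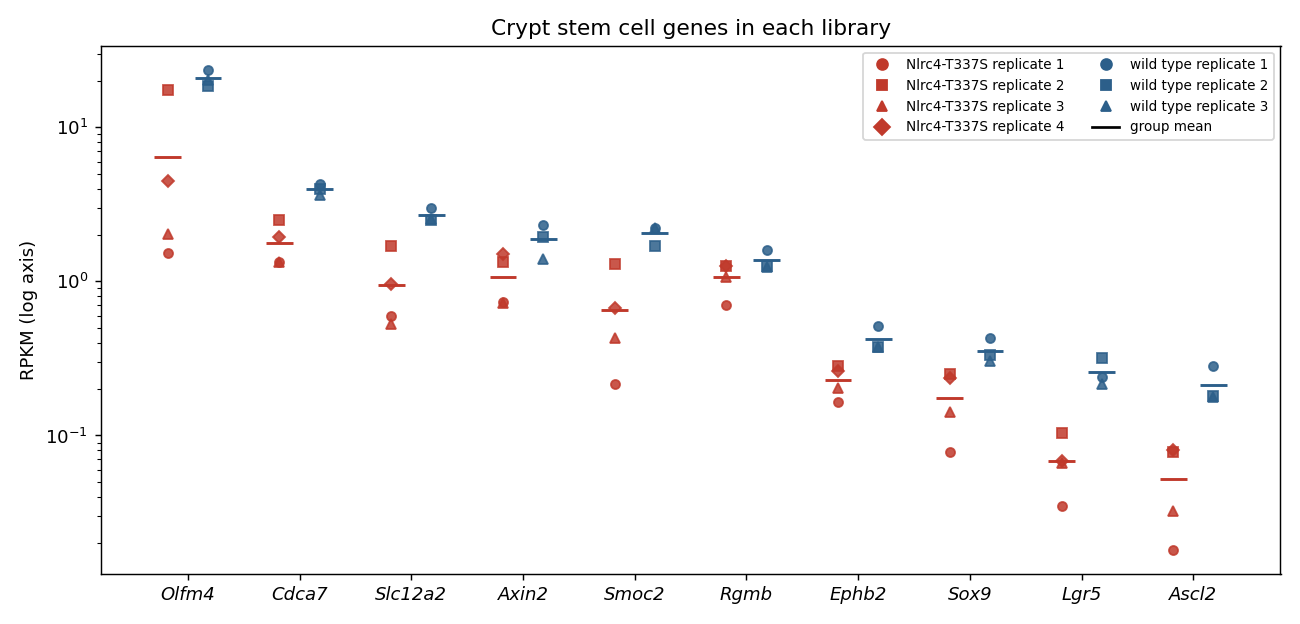
RPKM of each crypt stem cell gene (log axis) in the 4 Nlrc4-T337S libraries, left, and the 3 wild-type libraries, right; horizontal bars are group means. Groups overlap for Axin2 and Rgmb; for Olfm4, Nlrc4-T337S replicate 2 at 17.6 RPKM lies next to the lowest wild-type library at 18.7 RPKM.

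Promoter windows are printed for 3 members: Olfm4, the most abundant, Ascl2, with the lowest level relative to wild type, and Axin2, a standard readout of Wnt signalling. Each is the 250 bases before the annotated transcription start in RefSeq on GRCm38.p6, read in the direction of the gene. Entries were matched for 6 members (Olfm4, Ascl2, Axin2, Rgmb, Cdca7 and Ephb2), with 8 start sites among them. Rgmb has several of these sites, and some of its windows overlap, so the 8 are not separate promoters. Olfm4 lies at chr14:80000052-80000301 (plus strand), Ascl2 at chr7:142969265-142969514 (minus strand) and Axin2 at chr11:108920099-108920348 (plus strand). Capitals mark matches to the kappa-B consensus, the motif of the NF-kappa-B factors.
Olfm4: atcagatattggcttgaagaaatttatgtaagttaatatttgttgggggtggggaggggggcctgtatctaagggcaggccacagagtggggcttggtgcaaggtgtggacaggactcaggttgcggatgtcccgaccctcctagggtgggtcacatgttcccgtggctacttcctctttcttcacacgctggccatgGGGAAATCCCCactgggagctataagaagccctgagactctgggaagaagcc
Ascl2: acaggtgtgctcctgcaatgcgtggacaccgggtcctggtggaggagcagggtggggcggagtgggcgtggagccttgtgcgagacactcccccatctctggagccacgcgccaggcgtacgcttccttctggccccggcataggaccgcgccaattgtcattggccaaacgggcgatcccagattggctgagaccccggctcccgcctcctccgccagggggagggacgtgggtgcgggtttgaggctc
Axin2: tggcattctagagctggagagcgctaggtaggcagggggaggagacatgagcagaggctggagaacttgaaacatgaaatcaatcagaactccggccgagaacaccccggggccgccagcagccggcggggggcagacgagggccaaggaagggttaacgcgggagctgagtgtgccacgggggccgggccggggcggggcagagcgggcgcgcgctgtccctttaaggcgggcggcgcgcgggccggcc

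The core of the motif read by TCF and LEF factors, the DNA-binding partners of beta-catenin, was searched on both strands as CTTTGAA or, with a final T, as CTTTGAT, and likewise as CTTTGTA or, with a final T, as CTTTGTT. It was in 0 of the 8 member windows and in 14.8% of all 32851 windows of the same length. CAGCTG, an E-box of the kind bound by basic helix-loop-helix factors such as Ascl2, was in 0 of the 8 and in 13.0% of all. GTGGGAA, a motif of the Notch effector Rbpj, was in 1 of the 8, that of Cdca7, and in 5.42% of all. The kappa-B consensus, chosen after the sequences were read and searched on both strands, was in 2 of the 8, those of Olfm4 and Ephb2, and in 7.25% of all. In Olfm4 it has 2 overlapping matches, spanning 52 to 42 bases before the start. In the 10760 windows of tested genes the shares were 10.7% for the TCF and LEF core and 11.6% for CAGCTG. They were 5.14% for GTGGGAA and 8.76% for the kappa-B consensus. A match or its lack describes the letters of these windows only.

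Lgr5 (chromosome 10, 114887367 to 115024836, mm9), the R-spondin receptor that defines crypt base stem cells, stood at 0.0351, 0.104, 0.0659 and 0.0679 RPKM in Nlrc4-T337S replicates 1 to 4. It stood at 0.241, 0.317 and 0.216 RPKM in wild-type replicates 1 to 3. All 4 Nlrc4-T337S values were below all 3 wild-type values, and the means were 0.0683 ± 0.0282 RPKM in Nlrc4-T337S (SD, n = 4) and 0.258 ± 0.0526 RPKM in wild type (SD, n = 3). Fitted without the filter, the difference was -0.41 on the log2(RPKM + 0.5) scale (SE 0.06; limma adjusted p = 0.0714), which did not pass. At such levels the added 0.5 exceeds the value itself, so the log2 difference understates the ratio of the means.

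Ascl2 (chromosome 7, 150152727 to 150155169), the transcription factor that sets stem cell identity downstream of Wnt, stood at 0.0181, 0.0780, 0.0322 and 0.0809 RPKM in Nlrc4-T337S and 0.281, 0.179 and 0.177 RPKM in wild type. The groups did not overlap. With an annotated exon length of 1612 bases and the mapped reads of each library, these values correspond to 2, 5, 4 and 8 reads in Nlrc4-T337S and 36, 20 and 23 reads in wild type. Counting error is therefore large, above all in Nlrc4-T337S. Without the filter the log2 difference was -0.37 (SE 0.07; limma adjusted p = 0.104), which did not pass.

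Olfm4 (chromosome 14, 80400109 to 80422667), a secreted glycoprotein abundant in stem cells, was the highest member in every library. It stood at 1.53, 17.6, 2.04 and 4.48 RPKM in Nlrc4-T337S and 23.6, 18.7 and 20.2 RPKM in wild type. Nlrc4-T337S replicates 1, 3 and 4 were far below wild type, and replicate 2 was just under the lowest wild-type library. The log2 difference was -2.19 (SE 0.64; 95% interval -3.65 to -0.74; limma adjusted p = 0.130), the largest of the 6 tested members in size, and did not pass. Without Nlrc4-T337S replicate 2 it was -2.85 (SE 0.29; limma adjusted p = 0.00360), a value chosen by leaving out the library nearest to wild type.

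Smoc2 (chromosome 17, 14416513 to 14541797), a secreted matrix protein of the stem cell signature that fibroblasts also make, stood at 0.217, 1.30, 0.427 and 0.668 RPKM in Nlrc4-T337S and 2.24, 1.69 and 2.23 RPKM in wild type. The groups did not overlap, with Nlrc4-T337S replicate 1 lowest and replicate 2 highest of its group. The log2 difference was -1.22 (SE 0.28; 95% interval -1.85 to -0.59; limma adjusted p = 0.0874) and did not pass; without Nlrc4-T337S replicate 2 it was -1.47 (limma adjusted p = 0.00489).

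Slc12a2 (chromosome 18, 58038332 to 58106475), the sodium, potassium and chloride cotransporter that supplies chloride for crypt secretion, stood at 0.601, 1.70, 0.526 and 0.968 RPKM in Nlrc4-T337S and 2.99, 2.52 and 2.55 RPKM in wild type. The wild-type libraries lay close together and all above Nlrc4-T337S. The log2 difference was -1.20 (SE 0.25; 95% interval -1.76 to -0.64; limma adjusted p = 0.0664) and did not pass; without Nlrc4-T337S replicate 2 it was -1.43 (limma adjusted p = 0.00384).

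Cdca7 (chromosome 2, 72314216 to 72324950), a Myc- and E2F-regulated chromatin protein of dividing cells, stood at 1.34, 2.52, 1.34 and 1.94 RPKM in Nlrc4-T337S and 4.28, 3.98 and 3.62 RPKM in wild type. It fell to 1.79 ± 0.562 RPKM in Nlrc4-T337S (SD, n = 4), against 3.96 ± 0.333 RPKM in wild type (SD, n = 3), and was lower in 4 of 4 Nlrc4-T337S libraries. The log2 difference was -0.99 (SE 0.18; 95% interval -1.41 to -0.58; limma adjusted p = 0.0493). The call lies close to the threshold: adjusted p ran from 0.00466 to 0.251 over the alternatives and was above 0.05 after leaving out any 1 library other than Nlrc4-T337S replicate 2. With a term for the submitters' sample order, first 4 against last 3 libraries, the adjusted p was 0.0543, and the log2 difference was -0.97 within the first 4 libraries and -0.96 within the last 3, which hold 1 wild-type library.

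**Figure D2:**
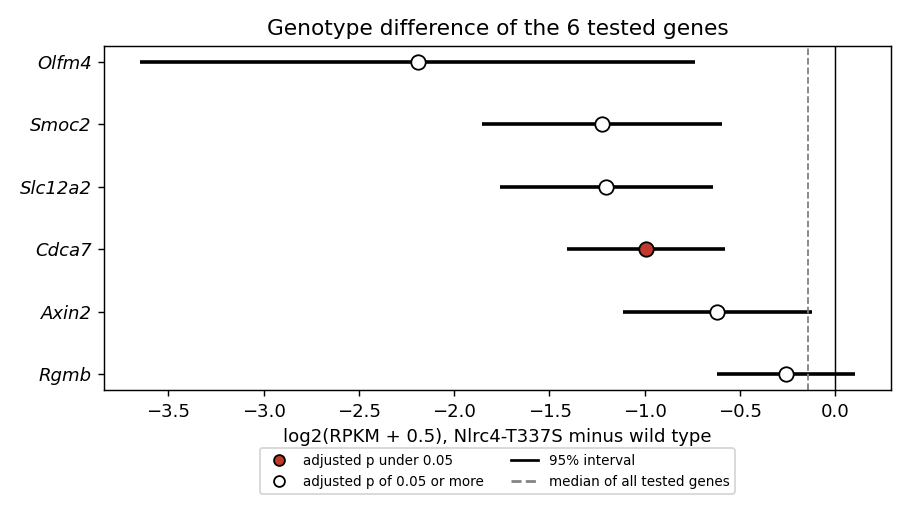
Difference between Nlrc4-T337S and wild type on the log2(RPKM + 0.5) scale for the 6 members with a mean of at least 0.5 RPKM; bars are 95% intervals and the dashed line is the median of all tested genes. Cdca7, filled, has an adjusted p of 0.0493, while the interval of Rgmb spans 0.

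Axin2 (chromosome 11, 108781663 to 108812097), a feedback inhibitor and direct target of Wnt signalling, stood at 0.738, 1.33, 0.723 and 1.50 RPKM in Nlrc4-T337S and 2.32, 1.95 and 1.40 RPKM in wild type. The groups overlapped, since Nlrc4-T337S replicate 4 exceeded wild-type replicate 3. The log2 difference was -0.62 (SE 0.22; 95% interval -1.12 to -0.12; limma adjusted p = 0.165) and did not pass. The exons of Axin2 overlap those of Gm11670 on the opposite strand, and the library kit does not mark strand, so their reads cannot be told apart.

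Rgmb (chromosome 17, 15941626 to 15963550), a membrane co-receptor for BMP ligands that also binds neogenin, stood at 0.705, 1.26, 1.07 and 1.25 RPKM in Nlrc4-T337S and 1.61, 1.25 and 1.24 RPKM in wild type. Nlrc4-T337S replicates 2 and 4 lay within the wild-type range. The log2 difference was -0.26 (SE 0.16; 95% interval -0.62 to 0.10; limma adjusted p = 0.358) and did not pass; the interval runs from a lower level in Nlrc4-T337S to a slightly higher one. Rgmb differed by -0.15 once libraries were scaled by median of ratios, and by -0.01 with quantile-normalized values; the same settings gave -0.51 and -0.37 for Axin2.

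Sox9 (chromosome 11, 112643538 to 112649074), a transcription factor of crypt progenitors and Paneth cells, stood at 0.0776, 0.249, 0.141 and 0.236 RPKM in Nlrc4-T337S and 0.429, 0.331 and 0.302 RPKM in wild type. Ephb2 (chromosome 4, 136203454 to 136391903), an ephrin receptor whose graded level positions cells along the crypt, stood at 0.165, 0.284, 0.205 and 0.262 RPKM in Nlrc4-T337S and 0.511, 0.377 and 0.376 RPKM in wild type. Neither gene had overlapping groups. Without the filter the log2 difference of Sox9 was -0.34 (SE 0.11; limma adjusted p = 0.182). That of Ephb2 was -0.34 (SE 0.08; limma adjusted p = 0.141), and neither passed. Over all 10 members in that fit 0 were called, where 0.105% of 20996 genes were called lower; 9 of the 10 had a lower level with an unadjusted limma p under 0.05, as did 17.7% of those genes. Among genes with a mean of 0.1 to 0.5 RPKM, the range that holds these 4 members, 21.6% had every Nlrc4-T337S library below every wild-type library.

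The levels kept much the same order in both genotypes. In wild type, where RPKM is scaled for gene length, Olfm4 averaged 20.8 ± 2.52 RPKM, Cdca7 3.96 ± 0.333 RPKM and Slc12a2 2.69 ± 0.265 RPKM (SD, n = 3), and the 3 wild-type ranges did not overlap. Smoc2, Axin2 and Rgmb followed at 2.05 ± 0.314, 1.89 ± 0.464 and 1.37 ± 0.208 RPKM in wild type; Smoc2 and Axin2 overlapped, as did Axin2 and Rgmb. Ephb2, Sox9, Lgr5 and Ascl2 were lowest, and each overlapped its neighbour in that order. In Nlrc4-T337S, Olfm4 averaged 6.42 ± 7.57 RPKM, Slc12a2 0.949 ± 0.538 RPKM and Smoc2 0.652 ± 0.468 RPKM (SD, n = 4). There Axin2 and Rgmb, at 1.07 ± 0.403 and 1.07 ± 0.260 RPKM, had higher means than Slc12a2 and Smoc2, with overlapping ranges.

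As a ratio of the highest to the lowest library, the spread was wider in Nlrc4-T337S than in wild type for all 10 members. That ratio compares 4 libraries with 3 and tends to rise at low levels. The SD in RPKM was instead larger in wild type for Lgr5, Ascl2, Axin2 and Ephb2. For Olfm4 the highest library was 11.5 times the lowest in Nlrc4-T337S and 1.26 times in wild type. For Smoc2 these ratios were 5.98 and 1.33, for Ascl2 4.46 and 1.59, and for Slc12a2 3.23 and 1.19. The members moved together across libraries: replicate 1 was the lowest of the Nlrc4-T337S group for 7 of 10 members and replicate 3 for the other 3 members, while replicate 2 was the highest for 8 and replicate 4 for 2, Ascl2 and Axin2. The median of the 10 members relative to the wild-type mean was 22.1% in replicate 1, 65.5% in replicate 2, 29.7% in replicate 3 and 43.5% in replicate 4 of Nlrc4-T337S. In wild type it was 115%, 92.5% and 90.1%. Nlrc4-T337S replicate 2 also had the fewest mapped reads, and 1 read per kilobase was worth 0.0251 RPKM in it, against 0.0130 to 0.0163 RPKM in the other Nlrc4-T337S libraries and 0.0124 to 0.0144 RPKM in wild type; the part of depth in these values was not tested.

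**Figure D3:**
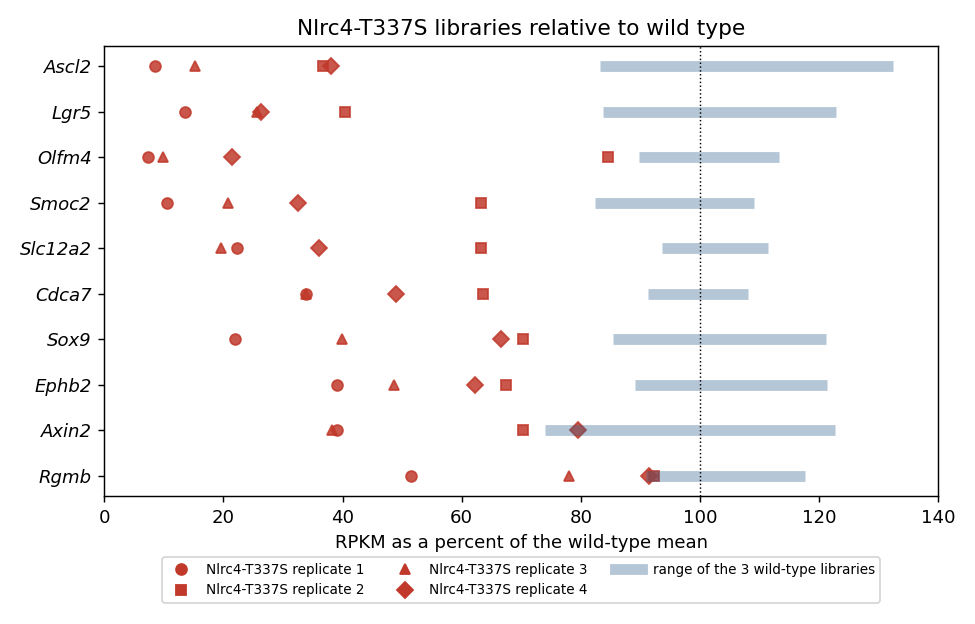
RPKM of each crypt stem cell gene in each Nlrc4-T337S library as a percent of its wild-type mean; blue bars span the 3 wild-type libraries. Replicates 1 and 3 lie furthest to the left for most genes, and replicate 2 reaches 84.5% for Olfm4 and 92.2% for Rgmb.

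Each member's log2 values followed the mean of the other 9 over the 7 libraries, with a Pearson r between 0.83 for Rgmb and 0.99 for Slc12a2; the libraries are the same for all members and the genotype difference is part of r, so this is a description. Among 9583 other genes with a mean of at least 1 RPKM, the 10 most like the members' mean were Smyd2, Sgsm3, Defa5, Defa29, Defa26, Kcnn4, Defa37, Tuba1b, Mptx2 and Srfbp1, all with r above 0.99. Defa5, Defa29, Defa26 and Defa37 are Paneth cell defensins, close copies whose reads may be split among them, and Mptx2 is a Paneth cell pentraxin. Kcnn4, a potassium channel that drives chloride secretion, stood at 0.733 ± 0.543 RPKM in Nlrc4-T337S and 2.04 ± 0.189 RPKM in wild type. Smyd2, a lysine methyltransferase, stood at 1.26 ± 0.608 RPKM in Nlrc4-T337S and 2.69 ± 0.359 RPKM in wild type. The 5 genes most like Olfm4, the highest member, were Prmt1, Rpl11, Mki67, Nob1 and Rpl8, which serve arginine methylation, ribosomes and their assembly, and cell division (Mki67). The 5 most like Ascl2, the lowest, were Ctbp2, Sec61a1, Gtf2h3, Fgfr3 and Dnajc24.

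Other genes reported in Lgr5-positive cells were listed separately. Of these 17 genes, 8 were tested, and 1 was called lower and 0 higher, where 0.592% of tested genes were called lower. The median log2 difference of the 8 was -0.62. The 1 called was Gpx2, a glutathione peroxidase of crypt epithelium and a Wnt target, which fell to 122 ± 29.1 RPKM in Nlrc4-T337S, against 257 ± 36.4 RPKM in wild type (log2 difference -1.09, SE 0.20; limma adjusted p = 0.0493). Gpx2 stood at 148, 142, 115 and 84.5 RPKM in Nlrc4-T337S and 299, 232 and 240 RPKM in wild type. For 12 of the 17, every Nlrc4-T337S library lay below every wild-type library, as it did for 14.9% of genes with any value above 0, and the other 5 (Aqp4, Msi1, Zbtb38, Sp5 and Jun) overlapped. The Nlrc4-T337S mean ran from 14.5% of the wild-type mean for Tnfrsf19, a Wnt-induced receptor, to 120% for Jun, a transcription factor. Tnfrsf19 was at 0.0129 ± 0.0164 RPKM in Nlrc4-T337S and 0.0887 ± 0.00491 RPKM in wild type, and Jun at 20.7 ± 4.82 RPKM in Nlrc4-T337S and 17.3 ± 0.700 RPKM in wild type.

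Among Wnt ligands, R-spondins, receptors and relay proteins, 0 of 19 tested genes were called in either direction, with a median log2 difference of -0.13, close to that of all tested genes. The 2 smallest p-values were those of Tle3, a corepressor, at 4.84 ± 0.360 RPKM in Nlrc4-T337S and 6.95 ± 0.986 RPKM in wild type, and Wnt4 at 0.611 ± 0.238 RPKM in Nlrc4-T337S and 1.34 ± 0.409 RPKM in wild type (limma adjusted p = 0.102 and 0.122). The R-spondin genes Rspo1, Rspo2 and Rspo4 were under 0.05 RPKM in every library. Rspo3, the fourth R-spondin and too low to be tested, was at 0, 0.0105, 0.0108 and 0.0204 RPKM in Nlrc4-T337S and 0.0526, 0.108 and 0.0725 RPKM in wild type. Wnt5a, a ligand of stromal cells that was also too low, was at 0.0558 ± 0.0251 RPKM in Nlrc4-T337S and 0.375 ± 0.248 RPKM in wild type. Rspo3 and Wnt5a were singled out after their values were seen, and both also stand in the list of stroma around crypts. Neither had overlapping groups. Every Nlrc4-T337S library lay below every wild-type library for 5 of the 31 genes of this list. The same held for 14.9% of genes with any value above 0. In Nlrc4-T337S, Rspo3 lay around the 0.0130 to 0.0251 RPKM that 1 read per kilobase was worth. Ctnnb1, which encodes beta-catenin and was singled out after its values were seen, stood at 228 ± 36.8 RPKM in Nlrc4-T337S and 228 ± 11.5 RPKM in wild type.

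Wnt targets outside the members had 0 of 7 tested genes called, all 7 with negative differences and a median of -0.59. For 9 of the 19 genes of this list, every Nlrc4-T337S library lay below every wild-type library. The same held for 14.9% of genes with any value above 0. Ccnd2, a cyclin, was at 4.33 ± 0.787 RPKM in Nlrc4-T337S and 7.90 ± 1.46 RPKM in wild type, and Cd44, a hyaluronan receptor, at 0.830 ± 0.310 RPKM in Nlrc4-T337S and 1.62 ± 0.493 RPKM in wild type (limma adjusted p = 0.0678 and 0.141). Rnf43, a ubiquitin ligase that removes Wnt receptors and was also singled out after its values were seen, did not share the members' order: it was at 2.65, 2.58, 4.25 and 7.32 RPKM in Nlrc4-T337S and 3.56, 3.38 and 5.24 RPKM in wild type.

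The Notch list had 0 of 9 tested genes called and a median log2 difference of -0.24. Dll4, a Notch ligand, was at 1.69 ± 0.253 RPKM in Nlrc4-T337S and 2.80 ± 0.150 RPKM in wild type, and Hes1, the main Notch target in progenitors, at 2.19 ± 0.674 RPKM in Nlrc4-T337S and 4.02 ± 0.308 RPKM in wild type (limma adjusted p = 0.0604 and 0.0999). The BMP list, which holds ligands and receptors that Rgmb serves, had 0 of 15 called and a median of -0.06, with Id2 at 24.6 ± 1.74 RPKM in Nlrc4-T337S and 28.3 ± 2.66 RPKM in wild type and Bmp3 at 0.926 ± 0.586 RPKM in Nlrc4-T337S and 1.36 ± 0.160 RPKM in wild type (limma adjusted p = 0.286 and 0.314).

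Ephrins and Eph receptors other than Ephb2 had 0 of 7 called and a median of -0.15, with Ephb4 at 0.456 ± 0.157 RPKM in Nlrc4-T337S and 1.06 ± 0.342 RPKM in wild type and Efna1 at 22.0 ± 0.911 RPKM in Nlrc4-T337S and 25.4 ± 2.81 RPKM in wild type (limma adjusted p = 0.109 and 0.272). Genes of reserve stem cells and injured epithelium had 0 of 7 called and a median of -0.22. Anxa1 was at 0.426 ± 0.235 RPKM in Nlrc4-T337S and 1.89 ± 0.894 RPKM in wild type, and Ly6a at 3.93 ± 1.56 RPKM in Nlrc4-T337S and 8.01 ± 2.94 RPKM in wild type (limma adjusted p = 0.0794 and 0.154). Ephb4 and Anxa1 reached the filter of 0.5 RPKM through wild type alone, which favours a lower level in Nlrc4-T337S.

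Marker lists of some other cells, such as Paneth and stromal cells, were lower in the same Nlrc4-T337S libraries. Others did not follow the members. T cell markers summed to 117% to 152% of the wild-type mean in those libraries, with Gzma the largest part. Villus enterocyte genes summed to 82.4% to 119%. The part of other cells in the result was not tested. Paneth cell genes had 3 of 16 tested members called lower and 0 higher, where 0.592% of tested genes were called lower. The Paneth list summed to 160 to 741 RPKM in Nlrc4-T337S and 1117 to 1650 RPKM in wild type. Those called were Defa3, a defensin, Mmp7, which matures defensins, and Pla2g2a, a bactericidal phospholipase. Pla2g2a fell to 0.212 ± 0.264 RPKM in Nlrc4-T337S, against 1.47 ± 0.255 RPKM in wild type (limma adjusted p = 0.0312). It reached the filter of 0.5 RPKM through wild type alone, which favours a lower call. As a percent of the wild-type mean, the Paneth sum was 12.2%, 51.7%, 11.1% and 21.4% in Nlrc4-T337S replicates 1 to 4, beside 16.0%, 77.7%, 19.3% and 33.7% for the members' sum, to which Olfm4 contributes most in wild type. In both sums replicate 2 was the highest Nlrc4-T337S library and replicate 4 the next. Proliferation genes had 0 of 20 called, all 20 with negative differences (median -0.69), and their sum was 67.8%, 105%, 68.9% and 75.7% in Nlrc4-T337S. Pcna contributed most to that sum, at 52.0 ± 7.35 RPKM in Nlrc4-T337S and 53.1 ± 3.26 RPKM in wild type, so the sum says little about the others. Hells and Mcm2 had the smallest p-values in that list (limma adjusted p = 0.0999 and 0.105).

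**Figure D4:**
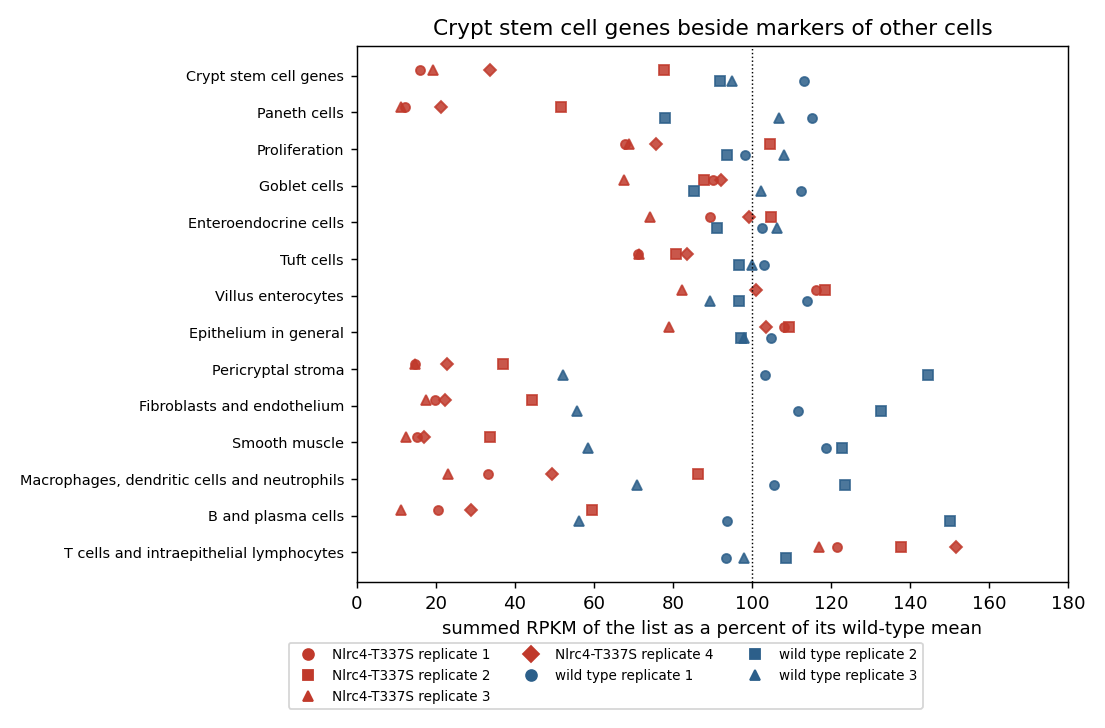
Summed RPKM of each marker list in each library as a percent of its wild-type mean, Nlrc4-T337S above wild type within each row. Crypt stem, Paneth, tuft and stromal lists lie below wild type in all 4 Nlrc4-T337S libraries. Villus enterocyte and general epithelial lists overlap, and the T cell list lies above.

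Stromal markers were low in every library, and their sums were lower in Nlrc4-T337S. Genes of the stroma around crypts, a source of Wnt, R-spondin and BMP signals, had 0 of 13 at a mean of 0.5 RPKM or more, so none was tested. They summed to 0.553 to 1.40 RPKM in Nlrc4-T337S and 1.98 to 5.46 RPKM in wild type, with Grem1, a BMP antagonist, under 0.05 RPKM in every library. Fibroblast and endothelial markers had 2 of 5 called lower and 0 higher, Dcn and Sparc, and summed to 2.05 to 5.19 RPKM in Nlrc4-T337S and 6.52 to 15.5 RPKM in wild type. Smooth muscle markers had 3 of 3 called lower, Myl9, Acta2 and Tagln, and summed to 1.89 to 5.07 RPKM in Nlrc4-T337S and 8.82 to 18.5 RPKM in wild type. Of the pancreatic acinar markers 2 of 3 were called lower, Sycn and Clps. The sums were 14.3 to 18.6 RPKM in Nlrc4-T337S and 27.3 to 38.7 RPKM in wild type, with Prss1 under 0.05 RPKM in every library. Over all tested genes, the share called lower was 0.592%. Of the genes called here, Acta2, Dcn, Sparc and Sycn averaged 0.319, 0.309, 0.320 and 0.132 RPKM in Nlrc4-T337S. They reached the filter of 0.5 RPKM through wild type alone, which favours a lower call. Myl9, Tagln and Clps averaged at least 0.567 RPKM in Nlrc4-T337S.

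Macrophage, dendritic cell and neutrophil markers had 0 of 12 called and summed to 22.5 to 84.7 RPKM in Nlrc4-T337S and 69.5 to 121 RPKM in wild type, with Mrc1 and Cd209a the smallest in p (limma adjusted p = 0.0733 and 0.0935). B and plasma cell markers had 0 of 8 called and summed to 48.2 to 257 RPKM in Nlrc4-T337S and 243 to 649 RPKM in wild type, with Tnfrsf17 and Derl3 smallest in p (limma adjusted p = 0.0876 and 0.0950). In both lists Nlrc4-T337S replicate 2 was the highest of its group, as it was for 8 of the 10 members. Mrc1 and Tnfrsf17 averaged 0.443 and 0.485 RPKM in Nlrc4-T337S. Both reached the filter of 0.5 RPKM through wild type alone, which favours a lower level in Nlrc4-T337S. T cell markers had 1 of 11 called, Gzmb, a granule protease, which was higher at 75.0 ± 9.61 RPKM in Nlrc4-T337S, against 47.1 ± 1.53 RPKM in wild type (limma adjusted p = 0.0392). Over all tested genes, the share called higher was 0.3%. The T cell list summed to 434 to 562 RPKM in Nlrc4-T337S and 347 to 403 RPKM in wild type. Gzma contributed most to that sum, at 280 ± 31.1 RPKM in Nlrc4-T337S and 207 ± 16.9 RPKM in wild type. Of the 11 differences in this list 9 were positive and 2 negative, with a median of 0.21.

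No gene was called in the enterocyte, goblet, enteroendocrine, tuft and general epithelial lists. Villus enterocyte genes had 0 of 18 called, a median log2 difference of -0.02 and sums of 82.4% to 119% of the wild-type mean in Nlrc4-T337S and 89.4% to 114% in wild type, with Cdhr5 and Fabp2 smallest in p (limma adjusted p = 0.179 and 0.242). Goblet cell genes had 0 of 9 called and a median of -0.30, with Spdef and Spink4 smallest in p (limma adjusted p = 0.142 and 0.222). Enteroendocrine genes had 0 of 12 called and a median of -0.18, with Chgb and Chga smallest in p (limma adjusted p = 0.0745 and 0.137). Tuft cell genes had 0 of 6 called and a median of -0.29, with Ptgs1 at a limma adjusted p of 0.0887. Their sums did not overlap, at 71.3% to 83.5% of the wild-type mean in Nlrc4-T337S and 96.8% to 103% in wild type. General epithelial genes had 0 of 10 called and a median of -0.15, with Krt19 and Cdx1 smallest in p (limma adjusted p = 0.141 and 0.154); Cdx1, a transcription factor of intestinal identity with more expression in crypts, was at 10.2 ± 2.76 RPKM in Nlrc4-T337S and 15.8 ± 2.72 RPKM in wild type.

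Single libraries set how many members passed. Without Nlrc4-T337S replicate 2, the library nearest to wild type, 4 of 6 members were called lower (Cdca7, Olfm4, Slc12a2 and Smoc2), where 11.7% of 10974 tested genes were called lower. Without each of the other 6 libraries in turn, 0 of 6 were called, where 0.0274% to 0.593% of tested genes were called lower; these fits have fewer libraries. The log2 difference of Olfm4 ran from -2.85 to -1.79 over these 7 fits, and that of Cdca7 from -1.14 to -0.90.

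**Figure D5:**
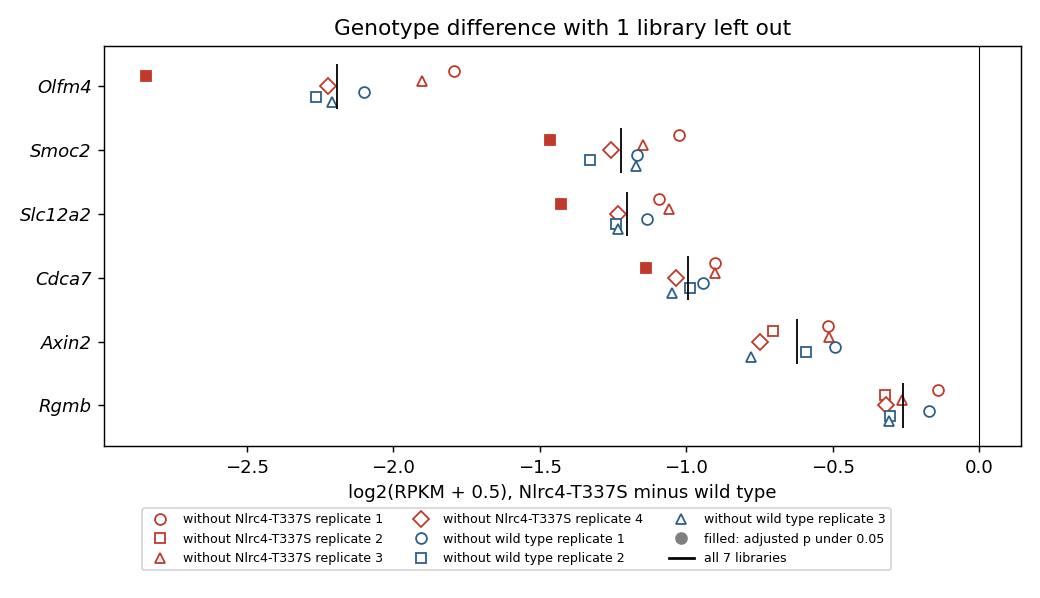
Difference between Nlrc4-T337S and wild type on the log2(RPKM + 0.5) scale for the 6 tested members with each library left out in turn; filled symbols have an adjusted p under 0.05. All symbols lie left of 0, and only those without Nlrc4-T337S replicate 2 are filled, for Olfm4, Smoc2, Slc12a2 and Cdca7.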

How the data were processed

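RNA from duodenal scrapings (4 Nlrc4-T337S and 3 wild-type libraries, grouped by the genotype label) was made into libraries with a TruSeq RNA kit, according to the labels' protocols. Alignment to mm9 used TopHat 2.1.0, and RPKM was computed in Partek 6.16.0606 by the authors, per the file headers; the gene models and the handling of multiply mapped reads are not stated there. The deposited counts of quality-passing reads were 45032119 to 95732587 per library, and the deposited fraction mapped came to 84.2% to 97.1%, so 1 read per kilobase was worth 0.0124 to 0.0251 RPKM.

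RPKM values are not counts, so log2(RPKM + 0.5) was tested with limma 3.58.1 in R 4.3.3 (mean-variance trend, no covariate, two-sided, Benjamini-Hochberg over all 10987 tested genes), checked on simulated data. Differences are Nlrc4-T337S minus wild type. Positions and exon lengths came from GENCODE vM1 (mm9), promoter windows from RefSeq (GRCm38.p6); read numbers for Ascl2 were estimated from RPKM, exon length and mapped reads, and lay within 0.0104 of whole numbers. For the other members the largest distance from a whole number was 0.406 to 0.494, and no read numbers are given for them. The members, the lists and most alternatives were chosen with earlier results of these data known. All members were named; from each list up to 4 called genes were named, or the 2 with the smallest p; 1 such gene is not reported here. Ctnnb1, Rnf43, Rspo3, Wnt5a, Pcna, Gzma and the genes at the ends or overlapping in the list from Lgr5-positive cells were added to these with their values in view. Settings varied were the pseudocount (0.1 and 1), the filter (none, or a mean of at least 2 RPKM), median-of-ratios scaling, quantile normalization, a sample-order term, a threshold of 0.10 and leaving out each library. Figures were drawn with matplotlib 3.10.9.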

Additional observations from a re-analysis of the deposited data

How the results depend on the processing

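The differences of the 6 tested members were negative in all 80 fits of a member under an alternative, of which 7 were called. These fits reuse the same 7 libraries, so the shared sign is no separate evidence. Of the calls, 4 came from leaving out Nlrc4-T337S replicate 2, where 11.7% of tested genes were called lower. The rest were Cdca7 with a pseudocount of 1, median-of-ratios scaling or quantile normalization, where 0.537% to 0.628% were called lower. Members called lower numbered 0 with a pseudocount of 0.1, 0 with no filter, 0 with a mean of at least 2 RPKM (2 members left), 0 with the sample-order term and 3 at a threshold of 0.10, against 1 as reported. The members' median was -0.52 with no filter (10 members) and -1.59 with a mean of at least 2 RPKM, which changes the members included. Leaving out 1 library gave 0 to 4 members called lower, 3 to 1280 genes lower and 9 to 74 higher. Over all genes, 65 lower and 33 higher as reported became 22 and 10 with no filter, 28 lower with a mean of at least 2 RPKM, 105 lower with the sample-order term, and 250 and 62 at 0.10; median-of-ratios scaling gave 63 higher and quantile normalization 74 higher. Of all calls 33.7% were higher as reported, 51.6% after median-of-ratios scaling, 55.6% after quantile normalization, 50.9% with a mean of at least 2 RPKM. The causes were not tested. Scaling moved the median of all genes from -0.15 to -0.01 (median-of-ratios) or 0.03 (quantile); relative to it the members' median was -0.95 as reported, -0.97 and -0.89. No paired analysis was possible because the labels give no replicate numbers shared by the genotypes. Depth limits Ascl2 most, at 2 to 36 reads.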
